A study of Mus musculus with 6 samples.

Results

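Cytochrome P450 genes encode heme enzymes that oxidise drugs, steroids, sterols, retinoids and fatty acids. The genes described here are those whose symbol in the deposited table has the form Cyp, family number, subfamily letter and gene number, without the Cyp4a and Cyp4b fatty acid hydroxylases and without the vitamin D enzymes Cyp2r1, Cyp27b1 and Cyp24a1. This rule found 91 genes among 23282 rows, 3 of them pseudogenes by their symbols and 1 an antisense transcript, Cyp4x1os. Levels were measured in whole kidney of 3 BALB/c mice and of 3 C57BL/6 (B6) mice, both inbred laboratory strains. The labels give no treatment, genotype change, age or sex for either strain. The series as a whole concerns strain differences of kidney innate lymphoid cells, and these libraries compare the whole organ between the strains.

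Most P450 enzymes sit in the endoplasmic reticulum and take electrons from the reductase Por, while a few sit in mitochondria and are served by ferredoxin and its reductase. In the kidney they are found mainly in the proximal tubule, where Cyp2j and Cyp2c enzymes turn arachidonic acid into epoxides that act on vessels and on salt transport. Enzymes of the Cyp2a and Cyp2d groups hydroxylate steroids and foreign compounds. Many of these genes lie in clusters of near copies that arose by duplication.

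Libraries were read from the 3′ ends of polyadenylated transcripts and held between 8310597 and 10416050 reads as recovered from the deposited values. Levels are given in CPM, the reads of a gene scaled to the library's total with a further factor per library. They summed to between 980188 and 1043599 per library. Levels are not divided by transcript length, since each transcript is read at its end. The labels were set beside marker genes. Xist lay between 188.4 and 192.9 CPM in BALB/c and between 104.3 and 164.4 CPM in B6, and the Y-linked Ddx3y, Uty, Kdm5d and Eif2s3y were at most 0.774 CPM in any library. That is the pattern of female mice in every library, though the labels do not give the sex. Xist itself was called higher in BALB/c by limma (log2 fold 0.56). Kidney markers such as Slc34a1, Umod, Slc12a3 and Aqp2 were present in every library. Aqp2 reached 497.7 CPM in B6 replicate 2 and the fat markers Cfd and Retn 18.3 and 4.03 CPM there, above every other library, so counts are also given without that library. The study's design text counts 3 mice per strain. In whole tissue, fewer cells of a type and less RNA per cell cannot be told apart.

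Of the 91 genes, 30 had no read in any library and 35 had reads but lay below the filter of 1 CPM in at least 3 libraries. The other 26 were tested. Of these, 0 were higher and 6 were lower in BALB/c than in B6 (limma, adjusted p under 0.05 over all 13317 genes tested), where over all genes tested 4.17% were called higher and 4.93% lower. The 6 are 23.1% of the tested members, against 9.09% of all genes tested called in either direction. The 6 were Cyp2c44, Cyp2a4, Cyp2d12, Cyp2d9, Cyp2a5 and Cyp2j5. At an unadjusted p under 0.05 there were 9 of the 26, 2 of them higher, against 21.3% of all genes tested. In 7 of the 26, the 6 called genes and Cyp2j9, the CPM of the strains was apart without overlap, against 25.4% of all genes tested. No tested member passed the filter through a single strain with every library of the other below it, and 22 passed in all 6 libraries. The median log2 fold, BALB/c over B6, was -0.10 over the 26 and 0.00 over all genes tested. Leaving out B6 replicate 2 also gave 0 higher and 6 lower.

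**Figure D1:**
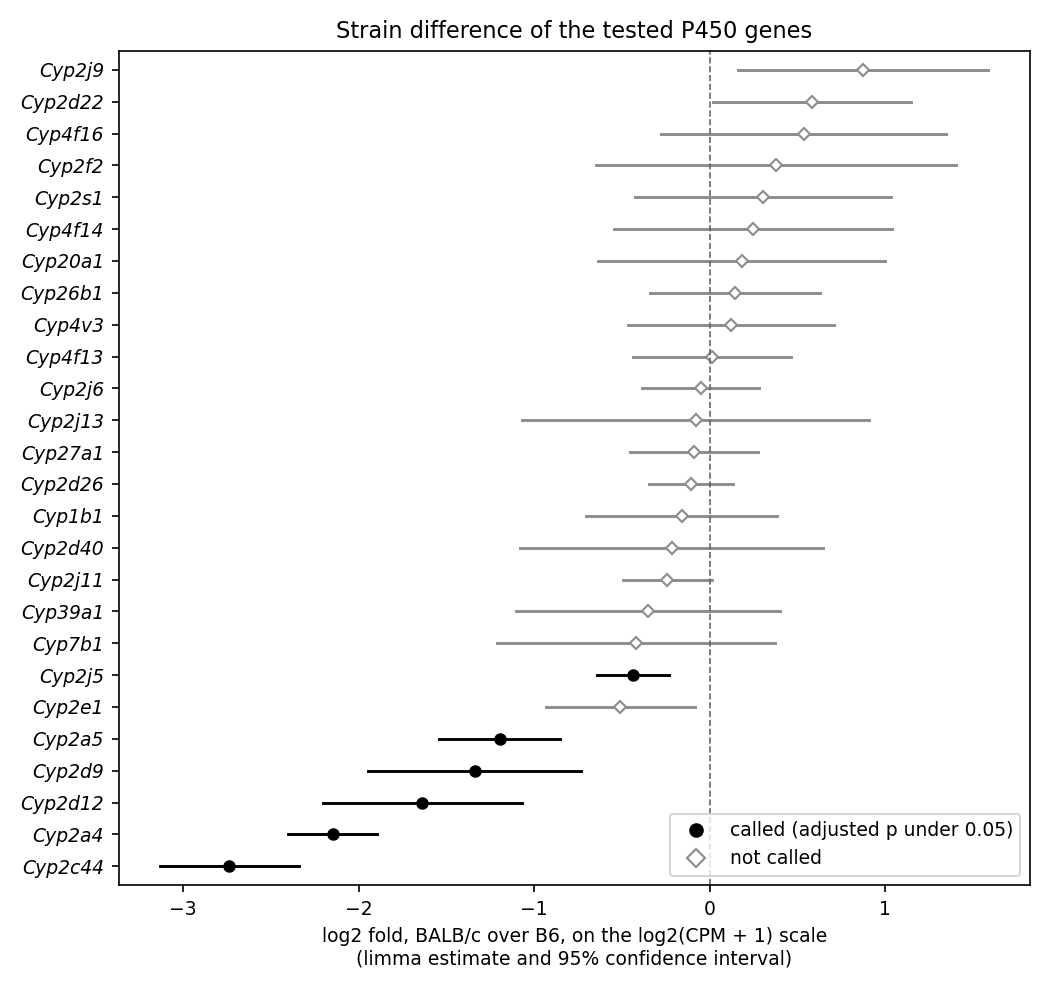
The 26 tested P450 genes by log2 fold (x axis, log2(CPM + 1) scale, BALB/c over B6) with 95% confidence intervals from limma, ordered from the highest to the lowest fold. Filled circles mark the 6 called genes, which lie between -2.74 and -0.44, and open diamonds the genes not called.

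Reads of both strains were processed with build mm10, which is made from B6. Whether BALB/c reads of these genes were lost against it was not tested.

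Both genes of the Cyp2a pair on chromosome 7 were lower in BALB/c. Cyp2a4 encodes a steroid hydroxylase (chromosome 7, 26307169 to 26315088, plus strand, GRCm38), and Cyp2a5 encodes an enzyme known for hydroxylating coumarin and nicotine (26835305 to 26843548, plus strand). Cyp2a4 had 42.0, 43.2 and 39.2 CPM in the 3 BALB/c mice, against 212.6, 158.9 and 193.6 CPM in the 3 B6 mice. The BALB/c values lay close together, far below the lowest B6 value. The log2 fold was -2.15 ± 0.12 (SE, limma adjusted p = 1.01e-11), and the mean of 41.4 CPM in BALB/c was 22.0% of that in B6. Cyp2a5 had 28.5, 45.5 and 32.8 CPM in BALB/c and 101.9, 78.0 and 67.5 CPM in B6. Its strains did not overlap either, and its log2 fold was -1.20 ± 0.17 (SE, limma adjusted p = 2.60e-05). Of the 3′ end words of Cyp2a4, stretches of 50 bases, 21.6% also occur in Cyp2a5, so part of the Cyp2a4 reads cannot be assigned with certainty. Of the 3′ end words of Cyp2a5, from the last 300 bases of its longest transcript, 0% occur in another gene. The Cyp2a4 words that occur in Cyp2a5 transcripts could give reads of either gene, so Cyp2a5 is not free of that limit. An exon of Gm42375 on the other strand overlaps Cyp2a4.

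The RefSeq promoters of the pair are shown because both genes were lower in BALB/c and because they are near copies. They run from 250 bases before to 50 bases after the transcription start on GRCm38.p6, the B6 reference, at chr7:26306942-26307241 for Cyp2a4 and chr7:26835089-26835388 for Cyp2a5, both on the plus strand. Capitals mark matches on either strand to 4 short motifs, CAAAGTCC (the core bound by HNF4, a liver and proximal tubule factor), TATAAA (the TATA box), AGGTCA (bound by many nuclear receptors) and GCGTG (the core of the Ahr site).
Cyp2a4: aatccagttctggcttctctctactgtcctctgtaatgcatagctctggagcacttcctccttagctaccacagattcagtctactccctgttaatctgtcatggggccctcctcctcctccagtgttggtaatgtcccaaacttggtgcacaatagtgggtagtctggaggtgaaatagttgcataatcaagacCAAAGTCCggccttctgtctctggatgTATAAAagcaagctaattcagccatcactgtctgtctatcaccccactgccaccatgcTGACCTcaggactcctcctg
Cyp2a5: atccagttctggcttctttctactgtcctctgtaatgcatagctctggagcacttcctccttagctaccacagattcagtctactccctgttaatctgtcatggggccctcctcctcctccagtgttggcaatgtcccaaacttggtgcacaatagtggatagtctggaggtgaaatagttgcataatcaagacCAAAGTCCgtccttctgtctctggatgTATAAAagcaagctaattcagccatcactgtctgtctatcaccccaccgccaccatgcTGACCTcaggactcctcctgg
The 2 sequences were identical at 294 of 301 aligned columns (97.7%). Both hold CAAAGTCC, starting at position -55 in Cyp2a4 and -56 in Cyp2a5 counted from the start, and also TATAAA, starting at -28 and -29. Both also hold AGGTCA on the other strand, after the start, and neither holds GCGTG. The matches do not overlap each other.

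Elsewhere in the chromosome 7 cluster little was read. Cyp2a12, Cyp2a22, Cyp2g1 and the 5 Cyp2b genes, which include the barbiturate-inducible Cyp2b10, had no read in any library, and 3 reads would have been 0.290 to 0.354 CPM depending on the library. Cyp2f2, which activates naphthalene in the airway, had 61 reads in BALB/c and 32 in B6, and Cyp2s1 had 125 in BALB/c and 98 in B6. Their libraries overlapped between the strains and neither passed the test (limma adjusted p = 0.735 and 0.693). Cyp2t4 had 3 reads in BALB/c and 6 in B6.

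Among 16 Cyp2c genes only Cyp2c44, now also named Cyp2c23, passed the filter. It encodes an arachidonic acid epoxygenase and lies on chromosome 19 (44005022 to 44029208, minus strand), apart from the other Cyp2c genes of that chromosome, which end before it. Cyp2c44 had 10.5, 7.20 and 10.9 CPM in BALB/c, against 66.6, 83.0 and 57.3 CPM in B6. Every BALB/c mouse was far below every B6 mouse, and the mean in BALB/c was 13.8% of that in B6. The log2 fold was -2.74 ± 0.19 (SE, limma adjusted p = 4.84e-10), the lowest among the 26 tested. No 3′ end word of Cyp2c44 occurs in another gene, and none of its exons overlaps another gene's. Of the other 15 Cyp2c genes, 7 had no read, among them the gut gene Cyp2c55, and 8 had between 1 and 28 reads over all 6 libraries.

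Both strains expressed the Cyp2d cluster on chromosome 15, and its genes differed in how they compared. Cyp2d9 encodes a testosterone hydroxylase known for male-biased expression in mouse liver (82433437 to 82456845, plus strand). It had 4.45, 5.54 and 3.11 CPM in BALB/c and 12.1, 16.3 and 9.42 CPM in B6, and it fell by 1.34 ± 0.29 on the log2 scale (SE, limma adjusted p = 0.00386). Cyp2d12, a near copy (82555072 to 82560403, plus strand), had 3.77, 3.89 and 6.62 CPM in BALB/c and 16.2, 19.9 and 13.9 CPM in B6, and it fell by 1.64 ± 0.27 (SE, limma adjusted p = 2.52e-04). In both genes all BALB/c mice lay below all B6 mice. The pair shares 3′ end words with other Cyp2d genes and pseudogenes (11.8% of those of Cyp2d9 and 17.6% of those of Cyp2d12), and each overlaps exons of unnamed gene models.

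Cyp2d26, the Cyp2d gene with the most reads, had 151.7, 143.2 and 193.1 CPM in BALB/c and 170.02, 193.4 and 159.3 CPM in B6. The strains overlapped, and the log2 fold was -0.11 with an interval from -0.34 to 0.13 (limma adjusted p = 0.671). Of its 3′ end words 27.5% are shared. Cyp2d22 had 21.7, 8.84 and 17.2 CPM in BALB/c and 9.80, 10.1 and 9.08 CPM in B6. Its BALB/c replicates 1 and 3 lay above all B6 mice and replicate 2 below them, and it did not pass the test (log2 fold 0.58, limma adjusted p = 0.211). Without BALB/c replicate 2 it was called higher (log2 fold 0.93, limma adjusted p = 0.0271). Cyp2d40 averaged 1.07 ± 0.477 CPM in BALB/c and 1.46 ± 0.785 CPM in B6 (SD, n = 3 each). The other 5 Cyp2d genes had between 1 and 14 reads in all.

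The RefSeq promoter of Cyp2d9 (chr15:82452127-82452426, plus strand, GRCm38.p6) is shown as that of a gene lower in BALB/c without the HNF4 core of the Cyp2a pair in this window. Capitals mark the TATA box, here a match of TATAAA on the other strand.
Cyp2d9: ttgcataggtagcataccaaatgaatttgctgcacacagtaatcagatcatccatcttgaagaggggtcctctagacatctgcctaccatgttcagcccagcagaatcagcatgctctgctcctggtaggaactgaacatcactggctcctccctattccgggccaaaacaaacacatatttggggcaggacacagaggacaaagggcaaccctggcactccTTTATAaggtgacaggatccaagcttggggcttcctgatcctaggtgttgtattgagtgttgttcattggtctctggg
No CAAAGTCC, AGGTCA or GCGTG lies in this window. The window lies inside the span given above for Cyp2d9, and the sequence before the start of that span was not searched.

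Cyp2j5 gave more reads than any other of the 91 genes in all 6 libraries. It encodes an arachidonic acid epoxygenase of the proximal tubule (chromosome 4, 96628773 to 96664154, minus strand). It had 1231, 1064 and 1034 CPM in BALB/c, against 1516, 1321 and 1679.9 CPM in B6. All BALB/c mice lay below all B6 mice, but the gap was small beside the spread within B6. Mean levels were 1109.5 ± 106.4 CPM in BALB/c and 1505.8 ± 179.4 CPM in B6 (SD, n = 3 each), so that BALB/c had 73.7% of the B6 level. The log2 fold was -0.44 ± 0.10 (SE, limma adjusted p = 0.00531). The call was lost with no filter beyond 1 read (limma adjusted p = 0.0544) and where the variance prior had no trend (0.176), and it was kept in the other 16 alternatives.

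The Cyp2j5 promoter (chr4:96664070-96664369, minus strand, GRCm38.p6) is shown as that of the most read member. Capitals mark AGGTCA at position -197 and, on the other strand, TATAAA at -128.
Cyp2j5: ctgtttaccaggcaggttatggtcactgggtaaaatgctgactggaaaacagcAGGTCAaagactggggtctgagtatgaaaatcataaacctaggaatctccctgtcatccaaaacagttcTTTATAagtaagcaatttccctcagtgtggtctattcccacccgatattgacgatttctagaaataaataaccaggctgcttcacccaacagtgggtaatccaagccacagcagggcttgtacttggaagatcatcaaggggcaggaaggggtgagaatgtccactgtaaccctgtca
Neither CAAAGTCC nor GCGTG lies in this window.

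Neighbours of Cyp2j5 on chromosome 4 did not pass the test. Cyp2j11 had 146.7, 115.2 and 140.5 CPM in BALB/c and 147.0, 139.4 and 192.1 CPM in B6, with a log2 fold of -0.24 and an interval from -0.50 to 0.01 (limma adjusted p = 0.267). Cyp2j6 had 35.8, 36.3 and 26.8 CPM in BALB/c and 36.4, 32.1 and 33.2 CPM in B6, with an interval from -0.38 to 0.28. In both genes the strains overlapped. Among the 26 tested genes, Cyp2j9 was the one without overlap that was higher in BALB/c, at 6.29, 5.31 and 3.91 CPM, against 3.52, 2.02 and 1.68 CPM in B6. Its log2 fold of 0.88 ± 0.34 did not pass the test (SE, limma adjusted p = 0.126). Cyp2j13 had 21 reads in each strain, Cyp2j8 had 21 in BALB/c and 24 in B6, and Cyp2j12 had 2 and 4.

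**Figure D2:**
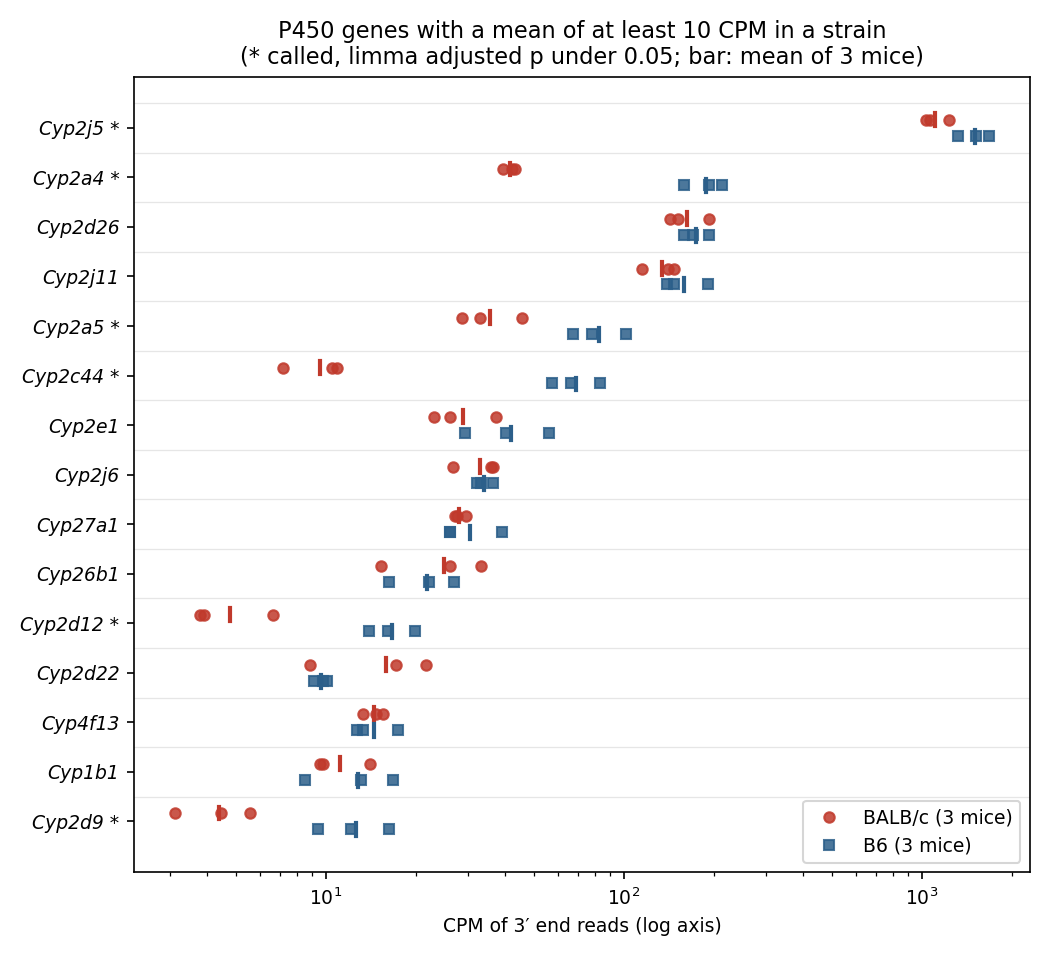
CPM of 3′ end reads on a log axis for the 15 P450 genes that averaged 10 CPM or more in a strain, with BALB/c as circles above B6 as squares, 1 point per mouse and a bar at the mean of 3 mice. Asterisks mark the 6 called genes, in which every BALB/c point lies left of every B6 point, as in Cyp2c44 with 7.20 to 10.9 against 57.3 to 83.0 CPM.

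Other members at 10 CPM or more overlapped between the strains and did not pass the test. Cyp2e1, which oxidises ethanol and activates paracetamol, had 37.3, 23.0 and 26.1 CPM in BALB/c and 40.1, 56.2 and 29.4 CPM in B6. Its log2 fold was -0.51 ± 0.20 (SE, limma adjusted p = 0.135), and without B6 replicate 3 it was called lower (-0.73, limma adjusted p = 0.0287). Of its 3′ end words 33.3% occur in other genes, such as Fcho2. Cyp27a1, the mitochondrial sterol hydroxylase of bile acid synthesis, averaged 28.0 ± 1.28 CPM in BALB/c and 30.4 ± 7.48 CPM in B6 (SD, n = 3 each; interval of the log2 fold -0.45 to 0.28). Cyp26b1, which breaks down retinoic acid, averaged 24.8 ± 8.95 CPM in BALB/c and 21.8 ± 5.28 CPM in B6 (interval -0.34 to 0.63).

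Cyp1b1, the Ahr-responsive enzyme of mesenchymal cells, averaged 11.1 ± 2.52 CPM in BALB/c and 12.8 ± 4.18 CPM in B6 (SD, n = 3 each; interval -0.70 to 0.39). Cyp4f13, of the group that hydroxylates leukotrienes and other fatty acids, averaged 14.5 ± 1.10 CPM in BALB/c and 14.5 ± 2.61 CPM in B6 (interval -0.44 to 0.47). Each of these intervals still allows a moderate difference in either direction.

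Below 10 CPM lay 11 members with at least 1 CPM in a strain, and 10 of these were tested without a call. Beside those already given they were the fatty acid hydroxylases Cyp4f14, Cyp4f16 and Cyp4v3, the oxysterol hydroxylases Cyp7b1 and Cyp39a1, the orphan Cyp20a1, and Cyp3a13. Cyp4v3 averaged 7.30 ± 1.52 CPM in BALB/c and 6.59 ± 1.05 CPM in B6, and Cyp7b1 averaged 2.05 ± 0.629 CPM in BALB/c and 3.24 ± 1.51 CPM in B6 (SD, n = 3 each). Cyp4f14 had 128 reads in BALB/c and 92 in B6, Cyp4f16 had 81 and 46, Cyp20a1 had 81 and 63, and Cyp39a1 had 56 and 74. In all of these the strains overlapped. Cyp3a13 had 33 reads in BALB/c, most of them in replicate 2, and 14 in B6, and was not tested.

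Several groups known from liver or endocrine glands were nearly silent. Of 9 Cyp3a genes, the main drug-oxidising group of the liver, 5 had no read and 4 lay below the filter, and Cyp3a11 had 13 reads in BALB/c and 0 in B6. The 6 genes of steroid hormone synthesis had 3 reads in BALB/c and 16 in B6 in all, of which Cyp17a1 had 2 and 14. Cyp11b1, Cyp11b2 and Cyp21a1 had none. Cyp7a1, the first enzyme of bile acid synthesis in the liver, also had none, and Cyp1a1 and Cyp1a2, the classical Ahr targets, had 0 and 9 reads in BALB/c and 5 and 0 in B6.

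Summed over all 91 genes, the level was 1835, 1603 and 1662 CPM in BALB/c and 2430.2, 2242 and 2565 CPM in B6. All BALB/c libraries lay below all B6 libraries. Means were 1700.2 ± 120.2 CPM in BALB/c and 2413 ± 162.1 CPM in B6 (SD, n = 3 each), a ratio of 0.705. Cyp2j5 made up 65.2% ± 2.65 of the sum in BALB/c and 62.3% ± 3.28 in B6. Without it the sums were 590.8 ± 45.8 CPM in BALB/c and 906.8 ± 18.9 CPM in B6. The 20 tested genes that were not called summed to 487.7 ± 54.4 CPM in BALB/c and 527.5 ± 30.2 CPM in B6, with libraries that overlapped. The difference in the sum thus lay in the called genes, which were chosen by this contrast, so the split is a description.

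**Figure D3:**
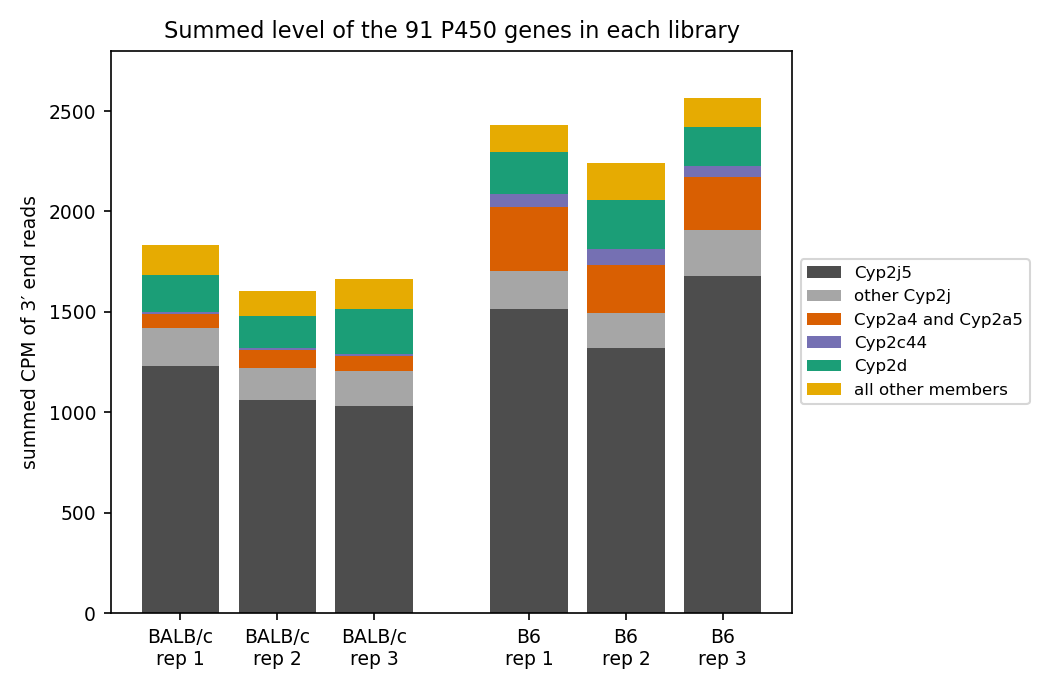
Summed CPM of 3′ end reads of the 91 P450 genes in each library (bars from 0, BALB/c on the left and B6 on the right), split into Cyp2j5, the other Cyp2j genes, the Cyp2a pair, Cyp2c44, the Cyp2d genes and all other members. The BALB/c bars reach 1603 to 1835 CPM and the B6 bars 2242 to 2565 CPM.

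Levels of 15 proximal tubule markers summed to between 7563 and 8556 CPM in BALB/c and between 8644 and 8993 CPM in B6, and 1 of the 15 was higher and 4 were lower in BALB/c. Slc5a12, a lactate transporter, rose by 1.22, while Slc4a4, a bicarbonate transporter, fell by 0.64 and Slc5a1, a glucose transporter of the straight tubule, fell by 0.54 on the log2 scale (limma adjusted p = 2.39e-08, 6.92e-05 and 0.00358). The last 2 lost their calls where the variance prior had no trend. Cyp2j5 came to 15.4%, 14.1% and 12.1% of that marker sum in BALB/c and to 16.9%, 15.3% and 18.9% in B6. These shares overlapped only through BALB/c replicate 1 and B6 replicate 2. The marker sum includes the called markers, and the other called P450 genes were not set against it. Of 10 liver markers, 0 were higher and 2 lower in BALB/c, Fgb and Fgg of fibrinogen (log2 folds -3.24 and -1.80, limma adjusted p = 2.24e-06 and 0.00806). Fgg lost its call without BALB/c replicate 1 or B6 replicate 2 (0.0616 and 0.0507). It was called in 13 of the 17 alternatives that tested it (limma adjusted p up to 0.130). The sums of the liver markers were 89.4 to 137.1 CPM in BALB/c and 136.6 to 154.6 CPM in B6, mostly Ttr. Alb (5.42, 11.3 and 10.2 CPM in BALB/c, 14.4, 13.1 and 15.1 CPM in B6) and Fga (0.483, 1.06 and 0.702 CPM in BALB/c, 2.31, 4.13 and 2.58 CPM in B6) were also apart without overlap, though not called (limma adjusted p = 0.132 and 0.0571). Tat had no read, and Cps1 and Apoh were at most 0.601 CPM. The adrenal genes Nr5a1 and Mc2r had no read, and of 10 adrenal markers 5 were without reads, 2 were tested and 0 were called by limma, with 0 at an unadjusted p under 0.05. Of 6 fat markers 1, Cfd, was tested and was not called (limma adjusted p = 0.872), and the 6 summed to between 2.12 and 11.1 CPM in BALB/c and between 0 and 27.2 CPM in B6. Of 7 blood and myeloid markers 2 were higher and 1 was lower, with Csf1r of macrophages at a log2 fold of 0.90. Lyz2 and the globin gene Hbb-bs were the others (log2 folds 1.22 and -0.65). Lyz2 lost its call without BALB/c replicate 1 or 2 or B6 replicate 2 or 3, and Hbb-bs without B6 replicate 1 (limma adjusted p up to 0.200 and 0.0513). The part of these cell types in the P450 differences was not tested.

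Among 3 androgen-responsive kidney genes 2 were tested and 0 called. The most read of them, Kap, had between 9351 and 11803 CPM in BALB/c and between 9120.2 and 14401 CPM in B6. Neither of the tested genes had a limma adjusted p under 0.05, and Odc1 had an unadjusted p of 0.0163.

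The electron donors and partner proteins of the P450 enzymes gave no calls. The 12 genes were those for reductases, cytochrome b5 proteins and ferredoxins, with Pgrmc1 and Pgrmc2. Of these, 11 were tested and 0 were called by limma, and 2 had an unadjusted p under 0.05, Fdx1l and Fdxr, both mitochondrial. Por had 221.6, 179.1 and 187.6 CPM in BALB/c and 176.0, 184.6 and 182.8 CPM in B6, with overlapping strains (log2 fold 0.11, limma adjusted p = 0.607). Of 21 receptors and factors known to act on P450 genes 18 were tested. The vitamin D receptor gene Vdr rose and 0 fell (0.39, limma adjusted p = 0.00837), a call lost without BALB/c replicate 1 (0.0522). Vdr was called in 16 of 18 alternatives, with a limma adjusted p of at most 0.147. Hnf4a had 271.5, 266.2 and 347.5 CPM in BALB/c and 341.5, 300.1 and 334.0 CPM in B6, again overlapping (log2 fold -0.15, limma adjusted p = 0.456). The drug-sensing receptor gene Nr1i2 had a log2 fold of 0.42 and the fatty acid receptor gene Ppara one of -0.09, neither called.

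Of 13 genes of heme synthesis and breakdown, 1 rose and 1 fell. Alad, the second enzyme of heme synthesis, had 176.8, 151.4 and 165.0 CPM in BALB/c and 69.5, 66.1 and 66.4 CPM in B6. The strains were well apart, and Alad rose by 1.27 ± 0.11 on the log2 scale (SE, limma adjusted p = 1.17e-08). Ppox, a later step, had 0.677, 0.354 and 1.80 CPM in BALB/c and 5.95, 5.14 and 5.16 CPM in B6 (log2 fold -1.79, limma adjusted p = 0.00249). Alas1, the first and rate-limiting step, had a log2 fold of -0.29 and was not called (limma adjusted p = 0.128).

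Of 14 genes that handle arachidonic acid products and epoxides, 9 were tested, 0 rose and 2 fell. Ephx2, which hydrolyses the epoxides that Cyp2j and Cyp2c enzymes make, had 139.8, 129.5 and 153.3 CPM in BALB/c and 174.0, 186.7 and 183.3 CPM in B6 (log2 fold -0.36, limma adjusted p = 0.0227). Lta4h, of leukotriene synthesis, fell by 0.69 on the log2 scale (limma adjusted p = 0.0123). Leaving out 1 library ended the call of Ephx2 for 4 of the libraries, BALB/c replicates 1 and 2 and B6 replicates 1 and 3 (limma adjusted p up to 0.126), and that of Lta4h for BALB/c replicate 1 and B6 replicates 1 and 3 (up to 0.0907). Over all 18 alternatives Ephx2 was called in 12 (limma adjusted p up to 0.187) and Lta4h in 14.

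Of 13 retinoid genes 11 were tested, and Lrat, the gene of the retinol-esterifying enzyme, fell (-1.42, limma adjusted p = 0.0211). Leaving out BALB/c replicate 2, B6 replicate 1 or B6 replicate 3 ended this call, with a limma adjusted p of at most 0.164. Lrat was called in 11 of the 17 alternatives that tested it. Of 10 sterol genes 8 were tested, and the steroid reductase gene Akr1d1 fell (-1.16, limma adjusted p = 0.0187), a call lost without BALB/c replicate 1 or B6 replicate 2 or 3 (up to 0.102). Akr1d1 was called in 13 of 18 alternatives. Of 5 genes listed as Ahr-responsive outside the P450 family 3 were tested, and Tiparp (-0.72, limma adjusted p = 0.00488, lost without B6 replicate 1 at 0.0546) and Lrat fell. Tiparp was called in 16 of 18 alternatives, with a limma adjusted p of at most 0.0991. Over all genes tested the background was 4.17% higher and 4.93% lower, as above.

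Among the 71 members with a RefSeq promoter, 15 (21.1%) held CAAAGTCC, against 1.42% of 32851 promoters of the same length. For all motifs, a member with several promoters was counted if any of them matched, while the background is a share of single promoters. Cyp2a4 and Cyp2a5 were the members with that match that averaged at least 1 CPM in a strain, while the others were Cyp2c, Cyp3a, Cyp4f18 and Cyp8b1 genes with few or no reads. The called genes Cyp2c44 and Cyp2d12 had no RefSeq promoter among those used and were not searched. TATAAA was found in 45.1% of the members and 13.6% of all promoters, AGGTCA in 28.2% and 16.3%, and GCGTG in 21.1% and 32.4%. Near copies share sequence, so members are not independent, and a match of letters does not show that a factor binds.

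**Figure D4:**
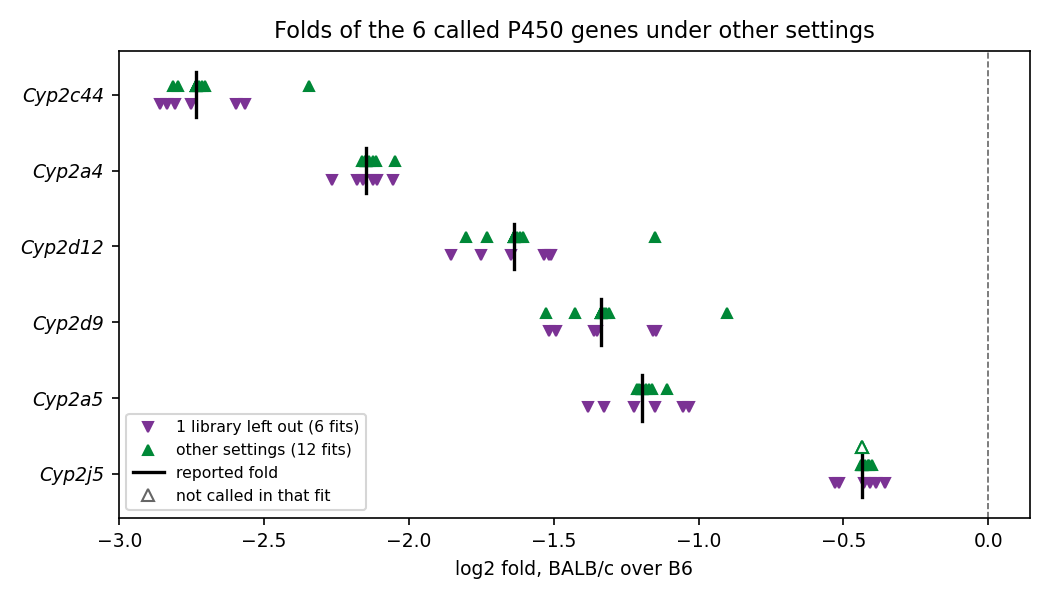
Log2 folds, BALB/c over B6 (x axis), of the 6 called P450 genes under 18 other settings, with 6 fits that leave out 1 library as purple triangles and 12 other settings as green triangles; the black bar is the reported fold. The open symbol marks 2 fits with the same fold in which Cyp2j5 was not called, and all other symbols lie left of 0 and were called.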

How the data were processed

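Whole kidney RNA of 3 BALB/c and 3 B6 mice was extracted with Trizol and made into Lexogen QuantSeq libraries, per the labels' protocols. Bowtie2 and bedtools with build mm10 are named in the submitters' processing notes; the sources used here do not give versions, annotation, use of strand or treatment of reads with several alignments. Each library has 1 deposited file of log2 values per gene. Raised from log2 and lowered by 1 they summed to between 980188 and 1043599 per library, and 100% of the values up to 20 reads came out whole within 0.1 read when divided by the library's smallest step, so they are log2(CPM + 1) with a further factor per library. A read was worth between 0.0968 and 0.118 CPM. The 45S ribosomal RNA row took 12.7% to 15.6% of the summed CPM.

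Rows with a deposited log2 value of at least 1 in at least 3 libraries were fitted with limma 3.58.1 in R 4.3.3, strain as sole term and a variance prior that follows level; p-values are two-sided and adjusted after Benjamini-Hochberg over 13317 rows. A fold has BALB/c on top and is a difference of log2(CPM + 1), which understates low genes. The design had also foreseen a test of the summed level; the sum is given without one. Named are members with a mean of at least 10 CPM in a strain or a call, other members by reads, and up to 3 called genes of each list. Some list genes are not reported here. Members and lists were chosen with earlier results of these data known. Same-numbered libraries did not deviate together (correlations between -0.0844 and 0.0115), so no block was used. Libraries of 1 strain were no duplicates (chi-square 7.75 to 16.3 per degree of freedom). The fit was tested on simulated data.

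Positions and exon overlaps are from GENCODE M21 on GRCm38, where 90 of the 91 members were placed. For shared ends, words of 50 bases every 5 bases of the last 300 bases of a member's longest transcript were looked up in all transcripts. Promoters are from RefSeq on GRCm38.p6, searched on both strands. Alternatives tried were 2 pseudocounts (0.5 and 5 CPM), 2 filters, 4 scalings, 2 variance priors, limma-voom on recovered reads, the replicate block and each library left out.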

Additional observations from a re-analysis of the deposited data

How the results depend on the processing

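The counts of called P450 genes were recomputed under 18 alternatives. The count of lower genes was 5 to 7. It was 5 with no trend in the variance prior (without Cyp2j5), 7 without B6 replicate 3 (with Cyp2e1) and 6 in the rest. With no filter beyond 1 read the 6 held Cyp2c67 and not Cyp2j5. Cyp2c67 had 0 reads in BALB/c and entered that fit through its B6 reads alone, so its call there lends no weight to the count. The count of higher genes was 0 except 1, Cyp2d22, without BALB/c replicate 2, so 0 to 1 over the left-out libraries, as against 6 to 7 lower. With the replicate block 0 were higher and 6 lower, and over all genes 453 and 524. The numbers do not pair the mice, since 0 of 3 same-numbered pairs had a correlation over 0.1. Over all genes, no trend gave 227 higher and 266 lower, against 555 and 656, and leaving out 1 library gave 350 to 534 higher and 415 to 604 lower. The cause was not tested.

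The difference of the summed level, BALB/c minus B6, was -712.3 CPM, -797.4 to -636.0 CPM with 1 library left out, and -316.0 CPM without Cyp2j5, a choice made after seeing the data; that sum has 1 gene with most of the reads fewer. Signs turned, among genes not called, when 1 library was left out: Cyp27a1 lay between -0.18 and 0.10, Cyp4f13 between -0.0685 and 0.148, Cyp1b1 between -0.407 and 0.0490, Cyp2j6 between -0.124 and 0.0893 and Cyp26b1 between -0.0880 and 0.443. Of 627 fits over 35 named genes, 568 kept direction and side of the threshold. Members at a few reads per library cannot show moderate differences at this depth.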

Other observations

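Near copies were also compared as ratios within each library, which no scaling of libraries can move. The 8 pairs were chosen after their values were seen: each called gene of the Cyp2a, Cyp2d and Cyp2j clusters against neighbours at 10 CPM or more. With 3 against 3 libraries an exact two-sided permutation test cannot go below 0.1, so no pair could pass. The ratio of Cyp2a4 to Cyp2a5 was 1.47, 0.948 and 1.20 in BALB/c and 2.09, 2.04 and 2.87 in B6, without overlap (exact permutation p = 0.1, adjusted over the 8 pairs 0.133). Cyp2d12 to Cyp2d26 was 0.0249, 0.0272 and 0.0343 in BALB/c and 0.0952, 0.103 and 0.0872 in B6, also apart (exact permutation p = 0.1, adjusted 0.133). The ratios of Cyp2d9 to Cyp2d26 and of Cyp2d9 and Cyp2d12 to Cyp2d22 were likewise lower in every BALB/c library than in every B6 library (differences of mean log2 ratio -1.43, -2.16 and -2.47, exact permutation p = 0.1 and adjusted 0.133 for each). Cyp2d9 to Cyp2d12 was 1.18, 1.42 and 0.470 in BALB/c and 0.748, 0.823 and 0.678 in B6, with overlap (exact permutation p = 0.6, adjusted 0.6). Cyp2j5 to Cyp2j6 was 34.4, 29.3 and 38.6 in BALB/c and 41.6, 41.2 and 50.6 in B6, without overlap (exact permutation p = 0.1, adjusted 0.133). Cyp2j5 to Cyp2j11 was 8.39, 9.23 and 7.36 in BALB/c and 10.3, 9.48 and 8.75 in B6, with overlap (exact permutation p = 0.2, adjusted 0.229).

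Below the filter, 4 adjoining Cyp2c genes of chromosome 19 that share 3′ end words, Cyp2c67, Cyp2c68, Cyp2c40 and Cyp2c69, had 2, 8 and 5 reads together in BALB/c and 25, 35 and 18 in B6. They were picked after their values were seen, so no test of the 4 is given. The call of Cyp2c67 named above, with no filter beyond 1 read, rests on its B6 reads alone. Cyp2c67 had 0 reads in BALB/c and 9, 9 and 4 in B6. With 3 reads over the 3 BALB/c libraries taken as the limit that a count of 0 allows, it was 7.45-fold lower in BALB/c. That figure takes the B6 reads as exact and leaves out differences between mice, so it is not a lower bound. Of the 3′ end words of Cyp2c67 45.1% occur in Cyp2c40 or Cyp2c68. Cyp1a2 went the other way, with 1, 3 and 5 reads in BALB/c and 0 in each B6 library, and Cyp4f18, known from neutrophils in mouse, had 0 reads in each BALB/c library and 0, 8 and 14 in B6.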
